A study of Homo sapiens with 6 samples.

Results

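Probes for 10 human microRNAs (miRNAs) that mark muscle, liver or brain were followed across 6 arrays of colorectal cancer cells. They were chosen by name: miR-1, miR-133a, miR-133b, miR-206, miR-208a, miR-208b and miR-499a-5p for skeletal and heart muscle, miR-122-5p for liver, and miR-124-3p and miR-9-5p for the nervous system. All 10 were on the array, among 1891 probes for human miRNAs, and each had 4 spots. The study asks which miRNAs differ when TGFB1, which encodes the growth factor TGF-β1, is knocked down. Lovo, SW620 and HT29 cells were stably transfected with the plasmid pSUPER gfp-neo, which carried either a short hairpin RNA (shRNA) against TGF-β1 (knockdown) or a control shRNA, with 1 array per line and shRNA. All 6 samples therefore carry the same plasmid backbone; whether each is a clone or a pool was not stated, and no other treatment is named. Groups follow the sample titles, but another label field names the knockdown plasmid for both Lovo samples and the control plasmid for both HT29 samples, so the direction of a difference in these lines rests on the titles. TGFB1 messenger RNA has no probe on these arrays, so the knockdown itself was not checked.

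A miRNA is a short RNA that pairs with messenger RNAs mainly through its seed, bases 2 to 8, and lowers their translation or stability. The muscle miRNAs are switched on by muscle transcription factors or lie inside myosin genes, miR-122 makes up much of the miRNA of liver cells, miR-124 is abundant in neurons, where it represses the splicing regulator PTBP1, and miR-9 is made in neural progenitors and neurons. Epithelial cells are not a main source of any of them. The 2 arms of a hairpin, -5p and -3p, are separate miRNAs with separate seeds.

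The mature sequences below, from RefSeq (GRCh38.p14), are shown because several probes target near-identical RNAs, and because for miR-9 and miR-122 the arms gave different readings. Of the 10 members, 9 had an entry. Capitals mark the seed.
miR-1: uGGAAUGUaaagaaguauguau
miR-206: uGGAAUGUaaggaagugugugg
miR-133a: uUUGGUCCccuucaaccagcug
miR-133b: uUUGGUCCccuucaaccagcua
miR-208a: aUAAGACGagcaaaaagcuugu
miR-208b: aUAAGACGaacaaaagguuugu
miR-499a-5p: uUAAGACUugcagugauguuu
miR-122-5p: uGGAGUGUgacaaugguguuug
miR-122-3p: aACGCCAUuaucacacuaaaua
miR-9-5p: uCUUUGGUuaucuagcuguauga
miR-9-3p: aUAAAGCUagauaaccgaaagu

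Counted from the 5′ end, with the first miRNA's base first, miR-1 and miR-206 share 18 of 22 positions and differ by A11G, A17G, A21G and U22G. The miR-133 pair differs only by G22A, and miR-208a differs from miR-208b by G10A, A16G and C18U. Each of these pairs has 1 seed in common, and miR-499a-5p shares bases 2 to 7 with the miR-208 pair. The capture probes' own sequences were not used here, so how well a probe tells such neighbours apart is unknown.

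In the genome miR-1, miR-206 and the miR-133 pair come as neighbours. MIR1-2 and MIR133A1 lie on the minus strand of chromosome 18, with the mature miR-1 at chr18:21829015-21829036 and miR-133a at chr18:21825712-21825733. A second pair, MIR1-1 (chr20:62554351-62554372) and MIR133A2 (chr20:62564970-62564991), lies on the plus strand inside the host gene MIR1-1HG. MIR206 (chr6:52144401-52144422) and MIR133B (chr6:52148988-52149009) lie on the plus strand of chromosome 6, with 4565 bases between the mature sequences; the latter is inside the noncoding gene LINCMD1. MIR208A (chr14:23388602-23388623, minus strand) lies within the bounds of MYH6, MIR208B (chr14:23417997-23418018, minus strand) within MYH7 and MIR499A (chr20:34990408-34990428, plus strand) within MYH7B, all genes for muscle myosin heavy chains. MIR122 is on the plus strand of chromosome 18 (miR-122-5p at chr18:58451088-58451109) in its host gene MIR122HG. miR-9-5p is encoded at chr1:156420392-156420414 and chr5:88666902-88666924, both minus strand, and at chr15:89368032-89368054, plus strand, each in a host gene.

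Each spot's foreground intensity was reduced by its local background, on the scanner's linear scale, and the median of the 4 spots is called the signal. A signal of at least 50 was taken as detection. Levels of different probes are not compared, since probes differ in how well they bind. Of the 10 members, 5 were detected on at least 1 array and 2, miR-206 and miR-124-3p, on all 6; among all human probes the shares were 36.2% and 13.5%. On single arrays the number of members detected was 4 on Lovo knockdown (28.7% of human probes detected), 2 on Lovo control (25.4%), 3 on SW620 knockdown (21%), 4 on SW620 control (26.5%), 2 on HT29 knockdown (22.2%) and 3 on HT29 control (22.5%). Of the 7 members that mark muscle, 3 were detected somewhere (miR-206, miR-133b and miR-133a).

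**Figure D1:**
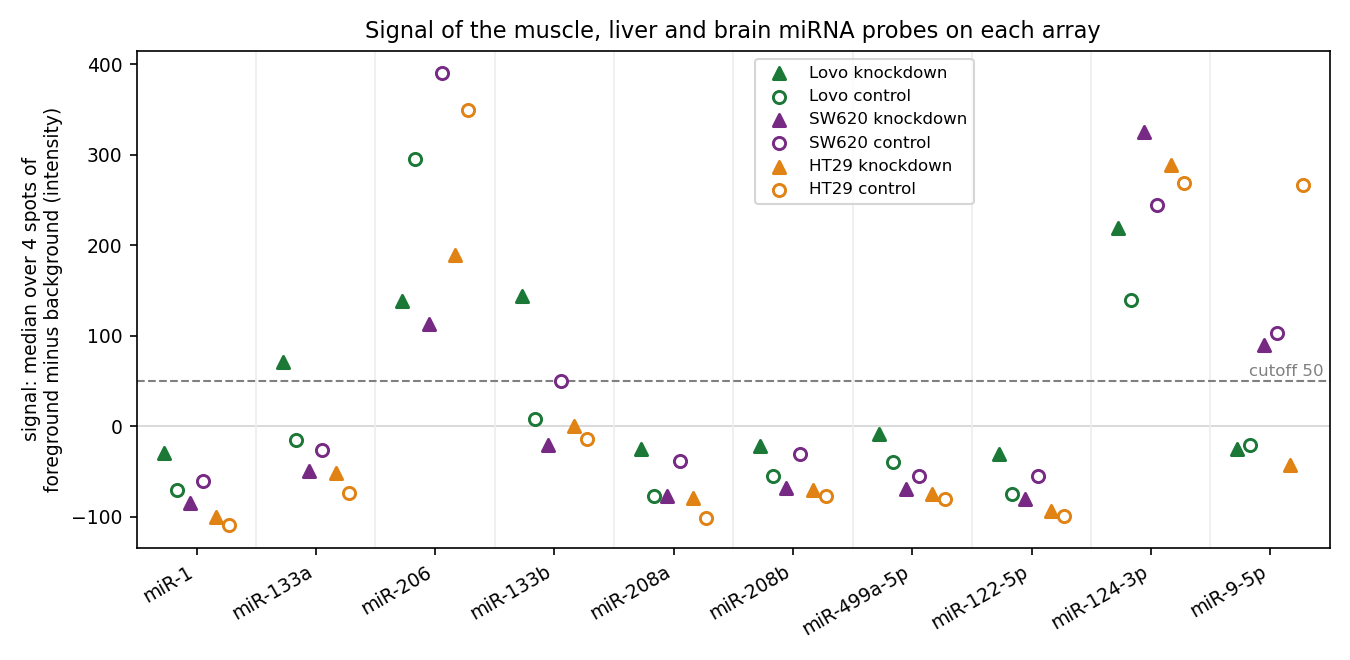
Signal of each probe (median over 4 spots of foreground minus background, linear intensity) on the 6 arrays, by line (colour) and shRNA (filled triangles knockdown, open circles control), with the detection cutoff of 50 as a dashed line. miR-206 and miR-124-3p lie above the cutoff on every array, and miR-1, miR-208a, miR-208b, miR-499a-5p and miR-122-5p below 0 on every array.

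The arrays themselves set limits. Median background was lowest, at 86, for Lovo knockdown and highest, at 202, for HT29 control; the Lovo knockdown array also correlated least with the rest (mean r of 0.633, against 0.745 to 0.812). The 28 spots of 7 negative control probes had medians from -90 to -21.5 per array. Of these probes 1 reached the cutoff, with a signal of 57.5 on the Lovo knockdown array. Of 10 gut epithelial markers (such as miR-192-5p and the miR-200 family), 8 were detected on Lovo knockdown and 6 on Lovo control. On SW620 knockdown and control 1 and 2 were detected, and on HT29 knockdown and control 1 and 0. The shares of all human probes, in the same order, were 28.7%, 25.4%, 21%, 26.5%, 22.2% and 22.5%. Most of these markers were thus undetected on the SW620 and HT29 arrays by this cutoff, as were most human probes. Of 5 fibroblast and smooth muscle markers, 1 and 3 were detected on Lovo knockdown and control, 3 and 3 on SW620, and 2 and 5 on HT29. Their summed signals were 334.5 to 4809.5 per array. Of 7 blood cell markers, 2 and 4 were detected in Lovo, 3 and 4 in SW620, and 3 and 3 in HT29 (summed signals of 428 to 3267.5).

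Among the muscle miRNAs, miR-1, which drives differentiation of heart and skeletal muscle in mice, was not detected on any array. Its signals were -30 in knockdown and -70.5 in control for Lovo, -84.5 and -60.5 for SW620, and -100.5 and -109.5 for HT29. All 6 lay below 0 and at or below the highest negative control probe of the same array.

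miR-206, found mainly in skeletal muscle and sharing the seed of miR-1, gave a different reading. Its signals were 2.76 times the cutoff of 50 in knockdown and 295.5 in control for Lovo, 113.5 and 390 for SW620, and 189 and 350 for HT29. Every knockdown array was below every control array, a separation that 13.3% of the 256 human probes detected on all 6 arrays showed in this direction on signals and 7.42% on normalised values. After normalisation between arrays, knockdown minus control on the log2 scale was -0.63 ± 0.15 (SE over spots, technical error only) in Lovo, -1.02 ± 0.33 in SW620 and -0.31 ± 0.11 in HT29. Here and below, the SE over spots comes from log2 spot values before normalisation between arrays. Of the 256 probes, 15.6% likewise had a lower normalised value in knockdown in all 3 lines.

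Across lines the mean log2 difference of miR-206 was -0.66 ± 0.33 (limma SE, n = 3 pairs, 95% interval -1.40 to 0.09). It did not pass limma's test with the cell line as a block (unadjusted p = 0.0771, Benjamini-Hochberg adjusted p = 0.520 over 570 miRNAs). In that fit 0% of the 570 miRNAs had an adjusted p under 0.05 and 10.7% an unadjusted p under 0.05. Markers of other cells differed beside it, none of them called. The fibroblast and smooth muscle marker detected on all 6 arrays, miR-199a-5p, had a mean difference of -1.60 ± 0.40 (limma SE, adjusted p = 0.199), and miR-145-5p was detected on the 3 control arrays and on no knockdown array, so it passed the filter through its control arrays alone. Over the markers tested the median was -0.66 for fibroblast and smooth muscle (4), -0.67 for blood cells (4, of which 3 below 0) and 0.60 for gut epithelium (6, of which 4 above 0), against 0.05 over all miRNAs tested. The gut markers miR-141-3p, miR-192-5p, miR-200a-3p and miR-200b-3p were detected on the Lovo arrays alone. Their means use SW620 and HT29 values below the cutoff, so the gut median is not a measurement across lines. Nor are the fibroblast and blood cell medians, which also use values below the cutoff. Among their markers, miR-145-5p was detected on 3 arrays, miR-199a-3p on 2, miR-142-5p on 4 and miR-486-5p on 3. The part of these lists in the miR-206 values was not tested. When arrays were scaled on spike control probes the mean was -0.08 and the HT29 difference turned to 1.65, while the median of all tested miRNAs moved to 0.57 across lines and 2.01 in HT29; relative to that median, miR-206 was at -0.64, -0.90 and -0.36 in Lovo, SW620 and HT29, values that no scaling of whole arrays can change. With plain background subtraction the mean was -1.30. The unadjusted p was 0.0305 when only miRNAs detected on all 6 arrays were fitted, 0.0484 without the replicate block and 0.0426 from blocks 1 to 18, with adjusted p-values of 0.387, 0.467 and 0.412.

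The single spots show where these values are firm. In SW620 knockdown, 2 of the 4 spots of miR-206 reached 50: the pair in blocks 1 to 18 averaged 15.5 and the pair in blocks 19 to 36 averaged 197.5. In SW620 control the order was the other way, at 519 and 250.5. The normalised difference in SW620 was 2.03-fold over all 4 spots, past 2-fold (as were 14.4% of the 368 miRNAs detected on both SW620 arrays). It was -1.57 on the log2 scale from blocks 1 to 18 and -0.46 from blocks 19 to 36, the latter under 2-fold. In Lovo these blocks gave -0.81 and -0.44, and in HT29 -0.28 and -0.39, below 0 throughout. This split was chosen after seeing the data.

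**Figure D2:**
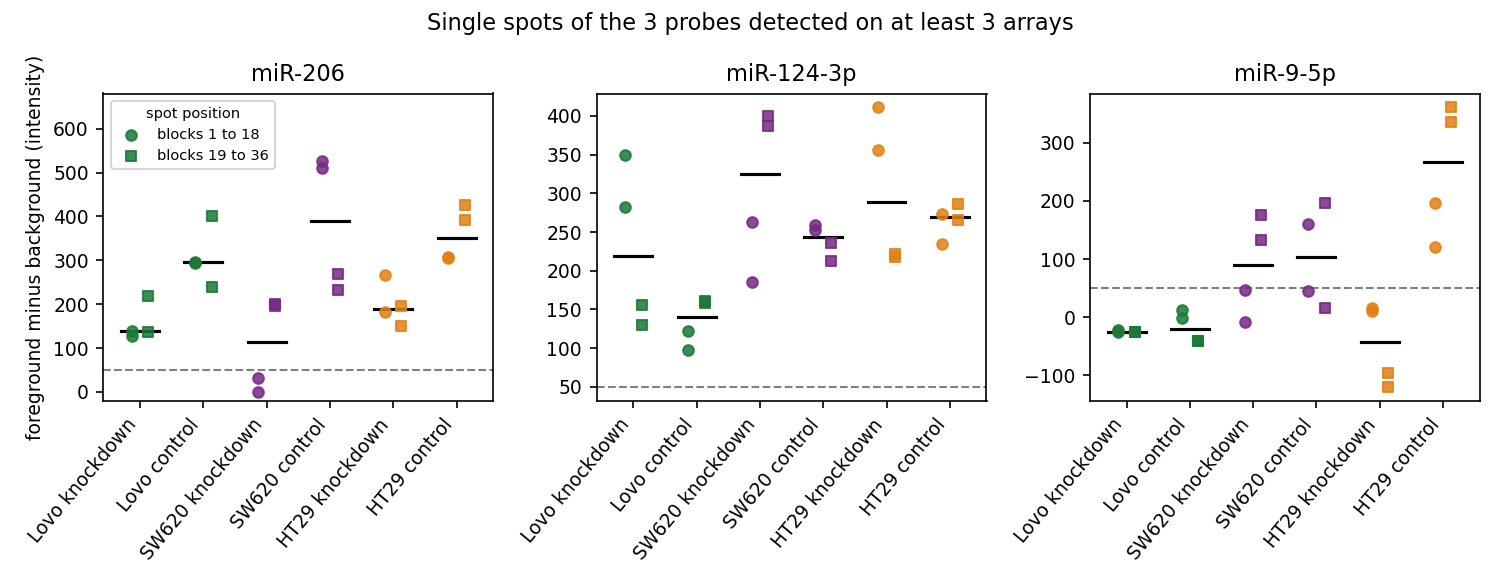
Foreground minus background (linear intensity) of the 4 spots of miR-206, miR-124-3p and miR-9-5p on each array; circles are spots in blocks 1 to 18, squares those in blocks 19 to 36, black bars the median, the dashed line the cutoff of 50. For miR-206 the 3 control medians (295.5 to 390) lie above the 3 knockdown medians (113.5 to 189), while 2 spots of SW620 knockdown fall below 50.

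The miR-133 pair, which in mouse muscle precursors favours proliferation over differentiation, was undetected on most arrays. The signals of miR-133a were 71.5 on Lovo knockdown, -15.5 on Lovo control, -49.5 and -26.5 on SW620 knockdown and control, and -52 and -74 on those of HT29. Only the Lovo knockdown array detected it, with all 4 spots between 60 and 74. Its median foreground there was 158.5, against 127 to 146.5 on the other arrays, whereas the median background beside its spots was 87.5, against 146 or more. The array with the highest signal was thus also the one with the lowest background and with a negative control probe at 57.5; the part of this in the signal was not tested. By its bound, miR-133a was at least 1.19-fold higher in knockdown than in control in Lovo, without a replicate; with a cutoff of 100, or of 100 above the median negative control spot (chosen after seeing the data), no array detected it.

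miR-133b, the neighbour of miR-206 on chromosome 6, was detected on Lovo knockdown and SW620 control. Its signals were 143.5 and 8 in Lovo knockdown and control, -21 and 50 in SW620, and 0 and -14 in HT29. SW620 control thus sat exactly at the cutoff, with spots from 8 to 89. Foreground on the Lovo knockdown array was higher too, with a median of 233 against at most 208.5 elsewhere. By their bounds, Lovo knockdown was at least 1.62-fold higher than its control and SW620 control at least 1.08-fold higher than its knockdown, with 1 array behind each value. No line had both arrays above the cutoff, so a mean difference across lines is not given as a measurement; the limma fit, which uses the values below the cutoff as they stand, gave an adjusted p of 0.850. The detection pattern of miR-133b was thus not that of miR-206, which all 6 arrays detected.

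**Figure D3:**
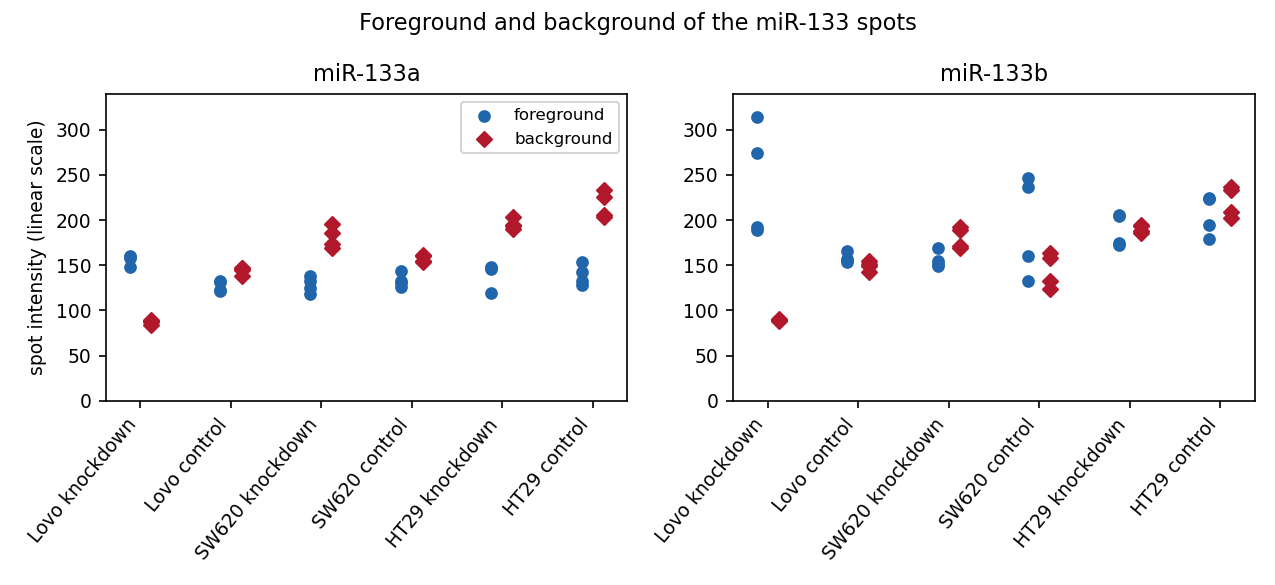
Foreground (circles) and background (diamonds) intensity of the 4 spots of miR-133a and miR-133b on each array, linear scale. For miR-133a the Lovo knockdown array has the highest median foreground (158.5, against 127 to 146.5 on the other arrays). It also has the lowest median background (87.5, against 146 or more). The part of each in its signal was not tested.

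The miRNAs inside the myosin genes were not detected on any array. miR-208a, which in mice takes part in the stress response of the heart, had signals from -101 (HT29 control) to -25.5 (Lovo knockdown). miR-208b, encoded within the slow myosin gene MYH7, ranged from -77 (HT29 control) to -22 (Lovo knockdown). For miR-499a-5p, encoded within MYH7B, the range was -80 (HT29 control) to -8.5 (Lovo knockdown). None of their spots reached 50, and on every array they lay at or below the highest negative control probe. In each case the Lovo knockdown array was the least negative, as it was for the negative controls (median spot -21.5, against -90 to -36.5). Intensities carry no counts, so no upper limit on their amount can be given.

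The liver marker miR-122-5p was not detected either. Its signals were -31 and -74.5 on Lovo knockdown and control, -80.5 and -55.5 on SW620, and -93.5 and -99 on HT29, with no spot above -21. The probe for miR-122-3p, the passenger arm of the same hairpin, was detected on all 6 arrays. Its signals were 622 and 1245 in Lovo knockdown and control, 1515 and 878.5 in SW620, and 1200 and 849.5 in HT29. The arm that is abundant in liver was thus undetected where the other arm's probe was not; what the miR-122-3p probe bound was not tested. The log2 difference of miR-122-3p was -0.68 ± 0.22 (SE over spots) in Lovo, 0.49 ± 0.15 in SW620 and 0.76 ± 0.23 in HT29. The mean was 0.19 ± 0.41 (limma SE, n = 3 pairs, adjusted p = 0.884).

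Of the brain miRNAs, miR-124-3p was detected on all 6 arrays, with every one of its 24 spots at 98 or more. Signals were 4.38 times the cutoff of 50 and 140 in Lovo knockdown and control, 325 and 244 in SW620, and 289 and 269 in HT29. Knockdown was the higher array in each line, but the groups overlapped, since the Lovo knockdown array lay below the SW620 and HT29 control arrays. Log2 differences were 0.31 ± 0.24 (SE over spots), 0.11 ± 0.15 and 0.24 ± 0.15 in Lovo, SW620 and HT29, none more than 2 times its SE. In Lovo, blocks 1 to 18 gave 0.69 and blocks 19 to 36 gave -0.06. A higher normalised value in knockdown in all 3 lines was shared by 24.2% of the 256 probes. The mean was 0.22 ± 0.31 (limma SE, n = 3 pairs, 95% interval -0.49 to 0.93, adjusted p = 0.810). With spike control scaling it was 0.82, where the median of all tested miRNAs was 0.57. There SW620 stood at -0.36, against a median of -0.64, and HT29 without normalisation at -0.10, against -0.31. Relative to those medians miR-124-3p was at 0.28 and 0.20.

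miR-124-5p, the other arm of that hairpin, was not detected, with signals from -61.5 (HT29 control) to -8.5 (Lovo knockdown). For both miR-122 and miR-124 1 arm was therefore detected on every array and the other on none.

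miR-9-5p, active in neural progenitors and described as a repressor of the adhesion gene CDH1 in breast cancer cells, was detected on 3 arrays. Its signals were -25 and -21 in Lovo knockdown and control, 89.5 and 103 in SW620, and -43 and 266.5 in HT29. Neither Lovo array detected it, both SW620 arrays did, and in HT29 the control array alone did, with all 4 spots between 120 and 361. Its bound in HT29 put control at least 2.23-fold above knockdown, with no replicate behind it. On the SW620 arrays 2 of 4 spots passed 50 on each, and the log2 difference of 0.14 ± 0.34 (SE over spots) was smaller than its technical error. Since 3 of the 6 arrays did not detect it, no mean difference across lines is given as a measurement. The limma fit, which uses the values below the cutoff as they stand, gave an adjusted p of 0.551 (unadjusted p = 0.105). With cyclic loess the unadjusted p was 0.0487 (adjusted 0.370), and without the SW620 pair it was 0.0116 (adjusted 0.128). In the latter fit HT29 control was the only array left that detected miR-9-5p, so the filter of 2 arrays was not met there.

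The other arm, miR-9-3p, was detected on all 6 arrays. Its signals were 217.5 and 753 in Lovo knockdown and control, 1046 and 777.5 in SW620, and 617.5 and 1076.5 in HT29. The lowest array was Lovo knockdown, one of the 3 on which miR-9-5p was not detected, and in HT29 both arms had the higher signal in control. The log2 difference was -1.07 ± 0.41 (SE over spots) in Lovo, 0.30 ± 0.17 in SW620 and -0.33 ± 0.14 in HT29. In Lovo it passed 2-fold (12.5% of the 408 miRNAs detected on both Lovo arrays), with control spots from 315 to 1186. The mean was -0.36 ± 0.41 (limma SE, n = 3 pairs, adjusted p = 0.747).

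**Figure D4:**
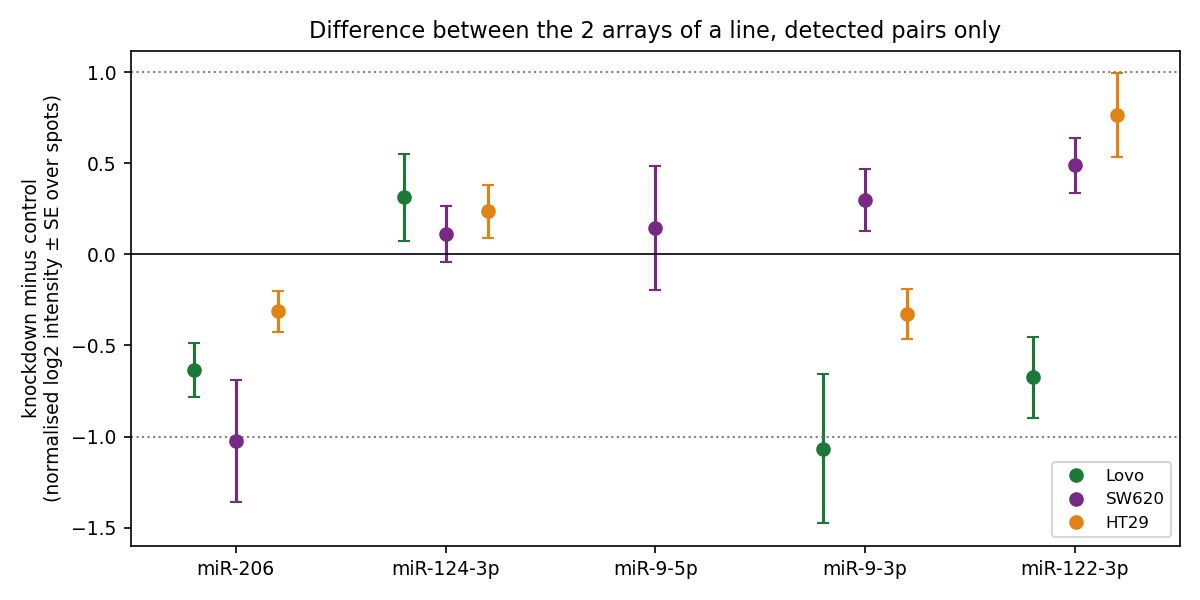
Knockdown minus control in normalised log2 intensity for each line. Error bars are the SE over 4 spots per array, from log2 spot values before normalisation between arrays. Only lines where both arrays detected the probe are drawn, and dotted lines mark 2-fold. miR-206 lies below 0 in all 3 lines (-1.02 to -0.31), miR-124-3p above 0 (0.11 to 0.31), and miR-9-3p and miR-122-3p have both signs.

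Counted together, members detected on both arrays of a line numbered 2 in Lovo, of which 0 differed 2-fold, 3 in SW620, of which 1 did (miR-206), and 2 in HT29, of which 0 did (11.9% of the 318 miRNAs detected on both HT29 arrays). These counts depend on the processing: miR-206 in Lovo was at -1.27 with plain background subtraction and -1.02 from the authors' deposited table, both past 2-fold, and in SW620 at -0.77 without normalisation, under 2-fold. The 4 members that passed the filter of detection on at least 2 arrays (30.1% of human probes did) were miR-206, miR-124-3p, miR-133b and miR-9-5p, and of these 0 passed the limma test, adjusted or unadjusted, at the settings used throughout; the settings at which miR-206 and miR-9-5p had an unadjusted p under 0.05 are given with each. The other 6 had no test. None of the 4 tested members was called, and the test called 0 of all 570 miRNAs. The absence of a call does not show that a member was unchanged.

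The miRNAs whose normalised values over the 6 arrays were most like those of each member detected on at least 3 arrays were ranked by Pearson's r, as a description over 6 arrays that share 1 normalisation. For miR-206 these were miR-125b-1-3p (r = 0.979), miR-103a-3p (0.973) and miR-4286 (0.961). For miR-124-3p they were miR-761 (0.934), miR-4500 (0.926) and miR-4505 (0.902). For miR-9-5p they were miR-140-5p (0.990), miR-3148 (0.950) and miR-1587 (0.949). Of all these, miR-125b-1-3p and miR-140-5p were detected on 3 arrays, miR-3148 on 2, miR-1587 on 5 and the rest on all 6. Below the cutoff, as on the Lovo arrays for miR-9-5p, r uses the values as they stand.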

How the data were processed

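RNA was isolated with TRIzol and miRNeasy columns, per the labels' protocols, and carried the dye Hy3 on 1-colour arrays; scanner and software were not stated. The deposited table holds, per the file headers, spot intensity as foreground and as foreground minus background, for 15840 spots per array. The authors' value table holds a ratio on a linear scale, without centring: the median background-corrected signal of a probe over 1 factor per array (282.75 to 353.75; within 1% for 100% of values). How that factor was derived is unknown. Column medians were 0.372, 0.493, 0.551, 0.446, 0.537 and 0.638 for Lovo, SW620 and HT29, knockdown before control.

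Intensities were corrected by normexp (offset 50, all spots), put on the log2 scale, averaged over spots and quantile-normalised over all probes but controls with limma 3.58.1 in R 4.3.3. The 570 human probes that 2 or more of the 6 arrays detected were fitted with the line as a block and eBayes with a trend, on 2 residual degrees of freedom. Arrays are paired by line, per the titles; the correlation of their deviations from group means was 0.381 in Lovo, -0.163 in SW620 and -0.0613 in HT29. A bound compares the bright array with the higher of the dim array's lowest detected value and the probe's own. Per the labels the cultures were grown independently. The fit was tested on simulated data. Members, lists and tests were chosen with earlier results of these data known; all members are named, with the 3 most alike probes. Alternatives covered background, normalisation, filter, spots, variance model, block, left-out pairs and cutoff; blocks 1 to 18 or 19 to 36 alone and the negative control cutoff were added after seeing the data.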

Additional observations from a re-analysis of the deposited data

Results flagged for a closer look

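The probe for miR-122-3p had opposite signs in different lines, at -0.68 in Lovo against 0.49 in SW620 and 0.76 in HT29 (log2, knockdown minus control). For miR-9-3p the values were -1.07 in Lovo and -0.33 in HT29 against 0.30 in SW620. Each was larger than its SE over spots, both arrays detected the probe in every line, and the differences between lines were not tested, since there is 1 array per condition.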

How the results depend on the processing

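The limma test called 0 miRNAs, with 61 at an unadjusted p under 0.05; it called 10 with plain background subtraction, 7 with median scaling, 5 with cyclic loess, 6 with robust eBayes, and 0 to 25 when 1 pair was left out (25 without SW620 and 25 without HT29, 0 without Lovo). The cause was not tested. Under none of these settings was a member called. The number at an unadjusted p was 1 with spike control scaling, 27 for probes detected on all 6 arrays and 40 from blocks 19 to 36, and without a filter it was 7.24% of all human probes against 10.7% of those tested. Adjusted p-values of members over the alternatives ranged from 0.387 to 0.977 (miR-206), 0.697 to 1 (miR-124-3p), 0.759 to 0.985 (miR-133b) and 0.128 to 1 (miR-9-5p). Fitted mean differences, which for miR-133b and miR-9-5p use values below the cutoff, ranged from -1.31 (the authors' value table) to -0.08 for miR-206, 0.07 to 0.82 for miR-124-3p, -0.10 to 0.72 for miR-133b and -1.05 to -0.15 for miR-9-5p. The only mean whose sign turned was that of miR-133b, at -0.10 without the Lovo pair, with a range of -0.10 to 0.35 over the left-out pairs. Without the replicate block the count of calls was 0 and no member passed the adjusted threshold, while the unadjusted p of miR-206 was 0.0484 against 0.0771. Requiring every spot to reach 50 left 1 member detected on all 6 arrays (miR-124-3p). At cutoffs of 30, 100 or every spot, and at the negative control cutoff, 4 or 5 members were detected on at least 1 array. Limits are 1 array per line and shRNA, the conflicting labels in Lovo and HT29, and, for the miR-133 pair and miR-9-5p, arrays below the cutoff.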

Other observations

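Wider tissue lists were counted in the same way. Of 17 further brain miRNAs, 14 were detected on no array, 3 on at least 1 and 0 on all 6. Among all human probes 36.2% were detected on at least 1 array and 13.5% on all 6. Of the 3 brain miRNAs tested 0 were called, as were 0 of all 570. One of the 3, miR-218-5p, was detected only on the Lovo control (55) and HT29 control (63.5) arrays and so passed the filter through control arrays alone. Among these, miR-323a-3p was detected on 5 arrays, with signals from 23.5 (HT29 control) to 238.5 (Lovo control). The activity-linked miR-212-3p was detected on 4 arrays, with signals of 160.5 and 84 in Lovo knockdown and control, -8.5 and 210.5 in SW620, and 47 and 101.5 in HT29. On HT29 control its spots ran from -652 to 202, and the normalised log2 difference in HT29 was 0.32 ± 0.69 (SE over spots). Of 3 further muscle-linked miRNAs, miR-378a-3p was detected on all 6 arrays, miR-486-5p on 3 and miR-378a-5p on none. The log2 difference of miR-378a-3p was 1.05 ± 0.17 (SE over spots) in SW620, -0.43 ± 0.26 in Lovo and -0.49 ± 0.21 in HT29. Its mean was 0.05 ± 0.41 (limma SE, adjusted p = 0.984). The liver miRNA miR-885-5p was detected on no array, and neither were the pancreas miRNAs miR-216b and miR-217, while miR-216a-5p reached 62.5 on the Lovo knockdown array alone, the array that also alone detected miR-133a.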
